A study of Rattus norvegicus with 6 samples.

Results

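The unstrained baseline of fetal rat lung epithelium was described from the 3 control arrays among the 6 arrays of the study. Each control culture held cells labelled type II epithelial cells, isolated from fetal rat lung on embryonic day 19, plated on stretchable silastic membranes coated with collagen and kept in serum-free medium. From the day after plating the control monolayers were left without strain for 16 h. The labels of control cultures 2 and 3 give the strain as CD and the sex as male and female, while the label of control culture 1 gives neither. Each control culture shared its litter with 1 strained culture, and the strained arrays, which the labels place in the same strain and age, serve below only as the other culture of each litter.

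Type II cells make and secrete pulmonary surfactant, the lipid and protein film that lowers surface tension in the air spaces, and store it in lamellar bodies. Type I cells are the thin cells through which gas is exchanged. Late in gestation the distal lung epithelium takes on both fates under the transcription factors Nkx2-1 and Foxa2. Isolated type II cells kept on a rigid or collagen-coated surface are known to lose surfactant gene expression and to gain type I features with time in culture.

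The array reports a signal for 15866 probe sets other than its 57 control probe sets, and these represent 10411 genes by a single symbol. The signal is the MAS5 signal, a linear brightness per probe set, and a gene is represented below by the brightest of its probe sets. Signal mixes the abundance of a transcript with how well its probes bind, so ranks between genes are given as bands of brightness and not as an order of abundance. The trimmed means of the 3 control arrays lay between 500.129 and 500.145, their medians between 167.9 and 197.3, and their log2 signals correlated at Pearson values of 0.962 to 0.970 across probe sets. Without detection calls, a gene was called dim below the 40th percentile of mean control signal, a signal of 121.1, and 7170 genes (68.9%) lay above it. A second level came from 31 genes of tissues that the cultures should not hold, such as the pancreatic hormone genes, the pituitary hormone genes and the sperm protamines. Of these, 10 (32.3%) also lay above the dim level, and their 90th percentile was 190.7, a signal that 6085 of all genes (58.4%) exceeded. The brightest off-tissue gene was Lhb, a pituitary hormone subunit, at 306.6, 316.1 and 286.0 in control cultures 1, 2 and 3, so a signal near 300 did not by itself show expression.

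The brightest gene was S100a11, a calcium-binding protein of epithelia, at 27205, 23816 and 23959 in the 3 cultures. S100a6, a related calcium-binding protein, had 21781, 18621 and 17205. Tmsb4x, which binds actin monomers, had 20689, 15491 and 17089, and Actg1, the non-muscle gamma actin, had 17311, 18292 and 16705. S100a11 was the brightest of these 4 genes in every culture, and the order of the other 3 differed between cultures.

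Ribosomal protein genes made up 30 of the 100 brightest genes, of 44 such genes measured. Rpl7a, Rpl27a, Rps23, Rps29 and Rps16 held ranks 2 to 6, with mean signals from 21033 to 23816. They were joined by the elongation factor Eef1a1, the ribosome-bound scaffold Rack1 and the mitochondrially encoded oxidase subunits COX1 and COX2. The 100 brightest genes held 16.0% of the summed signal of all genes, and signal dropped from 8771 at rank 100 to 1933 at rank 1000 and to 272.5 at the median gene. Rpl30, at a mean of 72.4, and Rpl3l, a muscle form at 14.9, were the ribosomal protein genes below the dim level. Of the 100 brightest probe sets, 31 matched several symbols and 12 matched none, and these name no gene here. Of the 31, 22 listed a ribosomal protein symbol, so the count of 30 covers only probe sets with 1 symbol.

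Other genes among the 30 brightest had various roles. Spint2, an epithelial inhibitor of membrane serine proteases, had 18675, 18990 and 17418. Ccn2, a matrix-associated growth factor also known as connective tissue growth factor, had 16324, 15890 and 15686. Sparc, a collagen-binding matrix protein, had 14940, 17447 and 14765, and Fn1, fibronectin, had 17038, 15614 and 14072. Gnas, the stimulatory G protein subunit, and Oaz1, the antizyme that limits polyamine synthesis, also belonged to them.

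**Figure D1:**
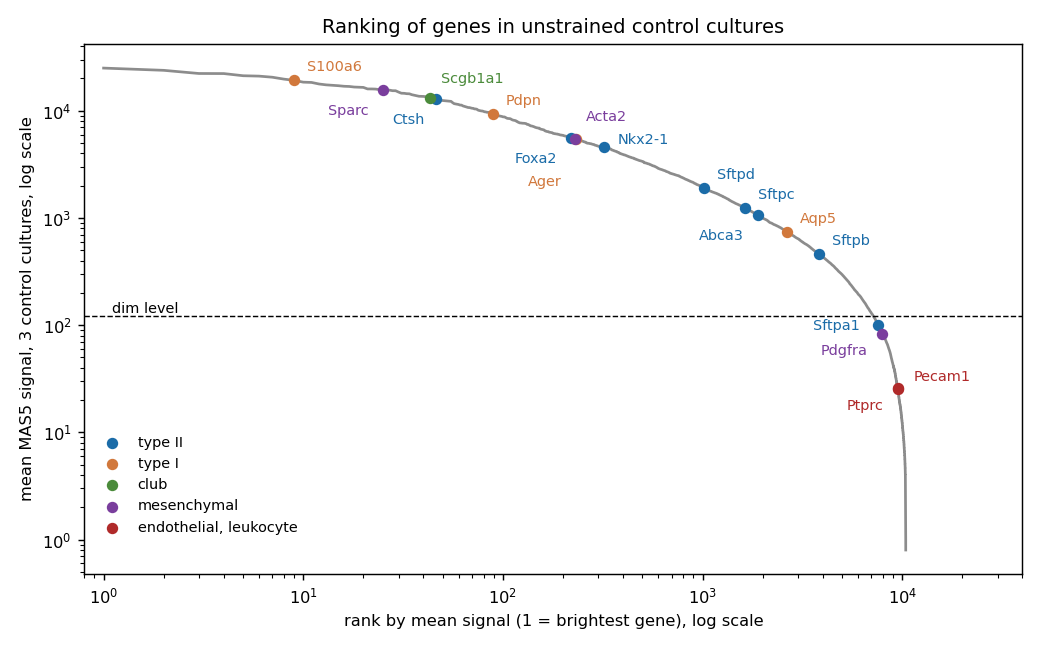
Mean MAS5 signal over the 3 control cultures (log axis) against the rank of each gene (log axis, 1 is brightest); coloured points mark genes of 5 kinds and the dashed line the dim level of 121.1. Ctsh, Scgb1a1, Pdpn and Sparc sit in the brightest 100 genes, the surfactant genes Sftpd, Sftpc, Abca3 and Sftpb lie lower at means from 1892 to 460.1, and Sftpa1, Pdgfra, Pecam1 and Ptprc fall below the dim level.

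The 6 genes that served as type II markers were all above both levels, but they spread over a wide range of brightness. Ctsh, the lysosomal protease that trims surfactant protein precursors, had 11912, 12957 and 13595 in control cultures 1, 2 and 3 (mean 12821 ± 850, SD, n = 3). Foxa2, a forkhead factor of lung and gut endoderm, had 5913, 5631 and 5194 (mean 5579 ± 362). Both lay among the brightest 250 genes of the ranking, at ranks 46 and 220.

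The surfactant genes themselves were less bright. Sftpd, Sftpc and Abca3 lay at percentiles 90.2, 84.3 and 81.8 of the ranking. Sftpd, a collectin that binds microbes in the air space, had 1439, 2215 and 2021 (mean 1892 ± 404). Sftpc, the hydrophobic surfactant protein made only by type II cells, had 1111, 1358 and 1228 (mean 1232 ± 124). Abca3, the pump that loads lipid into lamellar bodies, had 782.7, 1184 and 1218 (mean 1062 ± 242). Culture 1 was the lowest of the 3 for each of these genes, while the highest was culture 2 for Sftpd and Sftpc and culture 3 for Abca3.

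Sftpb, the other hydrophobic surfactant protein, was dimmer and went the other way. It had 512.4, 502.7 and 365.1 (mean 460.1 ± 82.4), lowest in culture 3. These 4 genes held ranks 1020, 1634, 1895 and 3825 of 10411. Sftpa1, the most abundant surfactant protein of the mature lung, had 99.5, 87.9 and 114.8, below the dim level in every culture, and its other probe set averaged 89.6.

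Across the whole type II list, 14 of 16 measured genes (87.5%) lay above the dim level, against 68.9% of all genes. Of the 16, 13 lay above the off-tissue level, against 58.4% of all genes. The median type II signal was 1128, against 272.5 over all genes. Its members Foxa2 and Nkx2-1 act in both alveolar fates, so the median does not by itself mark type II cells. Nkx2-1, the factor that specifies lung epithelium, had 5116, 4315 and 4229. Muc1, an apical mucin, averaged 4268, and Fabp5, a fatty acid carrier, averaged 4092. Napsa, the aspartic protease that processes surfactant protein B, had 173.9, 48.9 and 150.1, at the dim level itself. Cebpa, a factor tied to epithelial maturation, was dim at 13.8, 6.8 and 19.3. The other 6 genes of the list (Sftpa2, Cftr, Lgi3, Etv5, Cldn18 and Lamp3) were not analysed here.

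**Figure D2:**
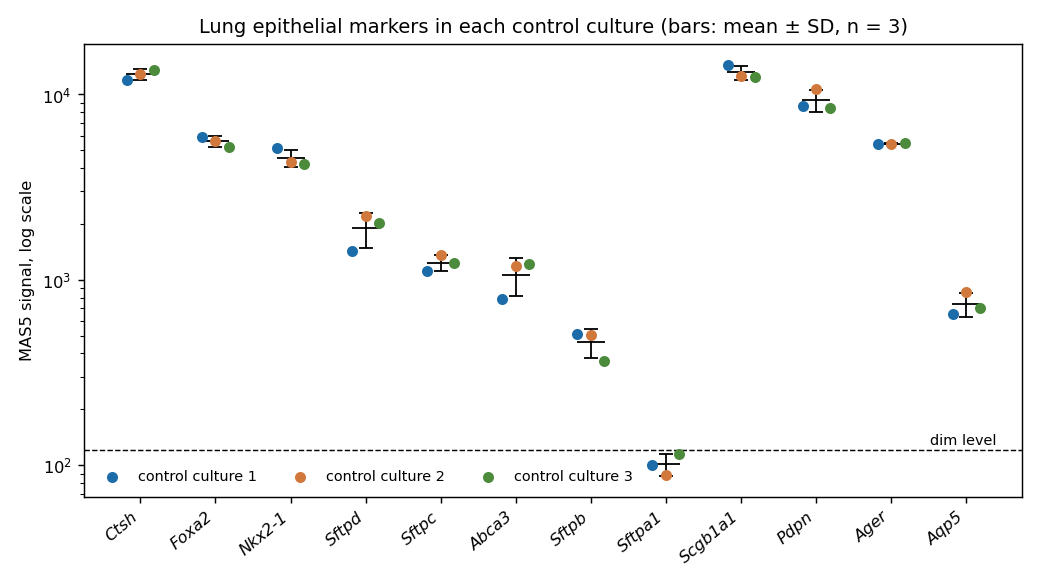
MAS5 signal (log axis) of 12 lung epithelial markers in each of the 3 control cultures, with the mean and SD (n = 3) as black bars and the dim level of 121.1 dashed. The 3 cultures of a gene lie close together compared with the distance between genes, and the lowest Sftpd and Abca3 signals, 1439 and 782.7, both belong to culture 1.

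Type I markers lay in the same bands of brightness as type II markers or above them. Of 17 measured genes, 14 (82.4%) lay above the dim level, against 68.9% of all genes. Of the 17, 4 were among the 100 brightest, and the median was 1619. Pdpn, the type I surface mucin podoplanin, had 8689, 10733 and 8426 (mean 9283 ± 1263). Ager, the receptor for advanced glycation end products and one of the most specific type I genes, had 5396, 5397 and 5485 (mean 5426 ± 51). Ager was the second steadiest of the 500 brightest genes.

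Other members of the type I list spanned the full range of the array. Gprc5a, a retinoic acid-induced receptor of the distal lung, had 15765, 14409 and 13084, and Emp2, a membrane protein of type I cells, averaged 5806. Aqp5, the water channel of type I cells, had 650.5, 859.4 and 705.7, and Hopx, a homeodomain protein of type I cells and their precursors, averaged 2010. Cav2, a caveolin, Akap5, a kinase anchor, and Igfbp6, a binding protein of insulin-like growth factors, were dim, with Igfbp6 at 49.1, 39.4 and 31.6. S100a6, Krt7 and Gprc5a are also expressed by other epithelia, so the 4 type I genes among the 100 brightest are not all specific to type I cells. Since each array holds RNA of a whole culture, a share of cells with type I features and a lower level of type I RNA in every cell cannot be told apart, and the same holds for each cell type below.

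General epithelial genes were uniformly bright. Of 20 measured genes, 19 lay above the dim level, 16 were among the 1000 brightest and the median was 4120. Krt7, a simple epithelial keratin, had 12807, 12462 and 12202. Epcam, the epithelial adhesion molecule, had 12505, 11148 and 11256, and Cdh1, E-cadherin, had 6509, 8147 and 7354. Krt8 averaged 7134 and Krt19 averaged 6287, while the dimmest members above the dim level, Elf3, Ocln and Cldn3, averaged 1021 to 1206. Ehf, an epithelial Ets factor, was the 1 dim member at a mean of 17.0.

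The airway lists held genes on both sides of the dim level, with a single far brighter member each for club and neuroendocrine cells. Scgb1a1, the main secretory protein of club cells, had 14506, 12624 and 12411, in the same band as Ctsh. Aldh1a1, a retinaldehyde dehydrogenase, averaged 523.5 and Cyp4b1 averaged 316.7, while Cyp2f4, Gabrp and Aldh3a1 were dim at means of 13.7 to 37.8. Thus 3 of 6 measured club genes lay above the dim level.

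Uchl1, a ubiquitin hydrolase of neurons and neuroendocrine cells that other cultured cells can also express, had 5108, 4454 and 4277. The granule protein gene Chga, a defining neuroendocrine marker, was at 4.6, 3.6 and 10.3. Of 11 neuroendocrine genes, 5 (45.5%) lay above the dim level, against 68.9% of all genes. Among ciliated genes Foxj1, the master factor of motile cilia, had 166.1, 295.6 and 259.6. Of 4 measured ciliated genes 3 (75.0%) lay above the dim level, against the same 68.9%, at means up to 405.3. Krt14, a basal cell keratin, had 673.9, 564.7 and 466.2, while Tp63, the basal cell factor, was dim at a mean of 23.3.

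**Figure D3:**
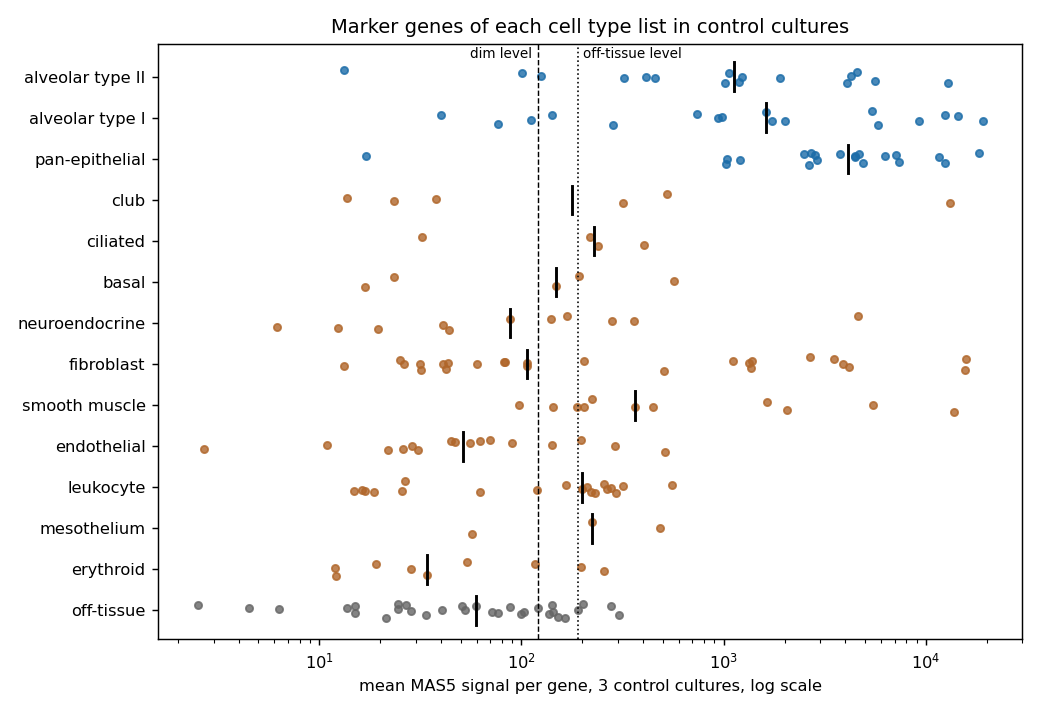
Mean MAS5 signal over the 3 control cultures (log axis) of every measured gene in 14 marker lists, 1 point per gene, with the list median as a black bar; the dashed line is the dim level (121.1) and the dotted line the off-tissue level (190.7). The type II, type I and general epithelial lists have medians of 1128, 1619 and 4120, while the fibroblast list spreads on both sides of the dim level, and the endothelial and erythroid medians lie below the off-tissue median of 59.6.

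Fibroblast genes fell into a bright and a dim part. Of 25 measured fibroblast genes, 12 (48.0%) lay above the dim level, a smaller share than the 68.9% of all genes. The bright part held matrix genes: Sparc and Fn1 (above), Fbn1, the microfibril protein fibrillin, at 3569, 4482 and 4431, Col1a1, a chain of fibrillar collagen, at 3870, 4447 and 3302, and Col5a2 and Bgn at means of 3499 and 2659. The dim part held genes that define lung fibroblasts, among them Pdgfra, the receptor of alveolar myofibroblast precursors, at 23.1, 82.6 and 144.1. Postn, a matrix protein of activated fibroblasts, had 13.0, 8.4 and 18.5, and Fgf10, the mesenchymal signal for lung branching, averaged 26.2. Dcn and Thy1, which fibroblasts usually express, averaged 60.0 and 82.1.

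Smooth muscle genes spanned a range as wide. Tagln, an actin-bundling protein, had 14108, 14924 and 12276, and Acta2, smooth muscle actin, had 3998, 7083 and 5299. Myl9, a myosin light chain, averaged 2049. The late contractile genes were low: Cnn1 had 184.3, 267.8 and 114.4, and Myh11, smooth muscle myosin, had 33.8, 37.4 and 222.0. In all, 10 of 11 measured genes (90.9%) lay above the dim level, against 68.9% of all genes. Of the 11, 8 lay above the off-tissue level, against 58.4% of all genes. Summed signal over the fibroblast list was 50005, 55706 and 50560 in the 3 cultures, and over the smooth muscle list 22775, 27614 and 23335, highest in culture 2 in both. Whether this signal came from fibroblasts left in the cultures or from the epithelial cells was not tested.

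Endothelial and blood cell markers were low. Of 16 measured endothelial genes, 4 (25.0%) lay above the dim level, against 68.9% of all genes, led by Esam at a mean of 511.8. The defining Pecam1 was dim, with 25.9 in culture 1 and at most 42.0 in the others. Among 19 leukocyte genes 11 (57.9%) lay above the dim level, against 68.9% of all genes. Only Fcer1g, an Fc receptor chain, and Cd74, the invariant chain, exceeded the brightest off-tissue gene, at means of 557.0 and 318.3. Ptprc, the pan-leukocyte phosphatase CD45, had 28.8, 24.4 and 23.5. Hbb, a beta globin, had 206.6, 292.7 and 267.5. Of 9 measured erythroid genes 2 (22.2%) lay above the dim level, against 68.9% of all genes, and both stayed below the brightest off-tissue gene. Summed leukocyte signal was 3455, 2982 and 3456, lowest in culture 2. Mesothelial Msln averaged 486.4, and Wt1, the defining factor of that layer, averaged 56.7.

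Lipid synthesis, the supply side of surfactant, included bright genes. Of 32 measured genes in the surfactant lipid list, 26 (81.2%) lay above the dim level, against 68.9% of all genes. Scd2, a fatty acid desaturase, had 10936, 10064 and 12006, Fasn, fatty acid synthase, had 8748, 8755 and 9361, and Acly, which makes cytosolic acetyl-CoA, had 5281, 5924 and 5331. Pcyt1a, the rate-limiting enzyme of phosphatidylcholine synthesis, had 208.5, 333.7 and 417.9. Chpt1, which completes phosphatidylcholine, was dim at a mean of 44.9, as was the Pcyt1b isoform at 10.6.

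All 19 measured genes of cholesterol synthesis lay above both levels, with a median of 2202. Over all genes 68.9% lay above the dim level and 58.4% above the off-tissue level. Fdps, which makes farnesyl diphosphate, had 10159, 12844 and 11689, and Msmo1, a sterol oxidase, had 6338, 5298 and 5733. Srebf2, the factor that drives this pathway, averaged 3740. The dimmest member, the sterol dehydrogenase Nsdhl, still averaged 210.6.

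Among the lung transcription factors 23 of 31 (74.2%) lay above the dim level, near the 68.9% of all genes. Beside Foxa2 and Nkx2-1, Ctnnb1, beta-catenin, had 5701, 6772 and 7662. Irx1 and Sox17 were dim at 7.9 and 2.7. Of 42 growth factor genes, 28 (66.7%) lay above the dim level, close to the share over all genes. After Ccn2 the brightest were Fzd2, a Wnt receptor, at a mean of 7366, Igfbp2, which binds insulin-like growth factors, at 6081, and Pdgfa, the epithelial ligand for mesenchymal Pdgfra, at 3706. Shh, the epithelial hedgehog ligand, was dim at 13.8, 10.4 and 10.8, and Hgf, a mesenchymal ligand, averaged 10.2.

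Basement membrane and integrin genes lay mostly in the upper range, with 22 of 25 (88.0%) above the dim level, against 68.9% of all genes. Of the 25, 14 were among the 1000 brightest. Dag1, dystroglycan, had 8017, 9089 and 7120, and Lama5, the laminin chain of epithelial basement membranes, had 6679, 8293 and 6565. Lamc1, Agrn and the syndecan Sdc1 averaged 5638 to 6980. Lama2, a laminin chain of muscle, was dim at a mean of 28.6.

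Before birth the lung turns from secreting to absorbing fluid. Of 20 measured genes for this transport 16 (80.0%) lay above the dim level, against 68.9% of all genes. Atp1b1, a subunit of the sodium pump, had 4311, 6864 and 6051, while its other bright probe set was steadier at 3869, 3808 and 4085. Scnn1b and Scnn1g, subunits of the epithelial sodium channel, had 979.1, 1446 and 1670 and 876.2, 1560 and 1471. Prss8, the protease that activates this channel, averaged 2635, and the water channel Aqp3 averaged 22.4.

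Cell cycle genes lay mostly above the dim level but few were bright. Of 35 cell cycle genes 31 (88.6%) lay above the dim level, against 68.9% of all genes. The brightest was the G1 kinase Cdk4 at 9032, 7439 and 6903. The cyclin-dependent kinase inhibitors Cdkn1a and Cdkn1c averaged 3901 and 2107, and Mki67, the proliferation marker, had 106.9, 59.7 and 166.3. Among immediate early genes Ier3, Jun and Egr1 averaged 6300, 4635 and 3021, while Fos and Fosb were dim at 85.8 and 88.7.

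Stress and inflammation genes showed single bright members. All but 1 of 24 stress genes (95.8%) lay above the dim level, against 68.9% of all genes. The brightest were Hsp90ab1, a constitutive chaperone, and Atf4, the factor of the integrated stress response, at means of 9750 and 4855. Of 27 interferon and inflammation genes 12 (44.4%) lay above the dim level, against 68.9% of all genes. Icam1, an adhesion molecule that type I cells carry, had 9700, 9945 and 8840, whereas Vcam1, Il6, Cxcl1 and Ptgs2 were dim at 6.6 to 36.5. All 20 glycolysis genes lay above the dim level, against the same 68.9%, from Aldoa at 14379, 11666 and 11206 to Hk2 at a mean of 128.7.

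The spread between cultures was small for most genes. Over the 7170 genes above the dim level the SD of log2(signal + 16) between the 3 control cultures had a median of 0.231, and 90% of genes lay between 0.063 and 0.555. On this scale the highest culture was at least 2-fold above the lowest for 451 genes (6.29%). That share fell with brightness, to 59 of 1991 genes (2.96%) with a mean above 1000 and 2 of 263 (0.76%) above 5000. With each culture left out in turn the count was 132 without culture 3, 211 without culture 1 and 217 without culture 2. For a given gene a range over 2 cultures cannot exceed that over all 3, so counts below 451 are largely built in.

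The steadiest of the 500 brightest genes was Rack1, which had 16563, 16485 and 16468, an SD of 51 on a mean of 16505. After Rack1 and Ager came Mrpl17, a mitochondrial ribosomal protein, Park7, an antioxidant protein, and Atp5mc3, a subunit of the ATP synthase. Sfn, an epithelial 14-3-3 protein, the cold-inducible Rbm3, Ccn2, App and Uqcrh completed the 10, with log2 SDs from 0.023 to 0.034.

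The most variable genes were sought only among genes above the dim level, and most of them lay not far above it. Of the 15 genes with the largest SD, Mt2A had a mean of 661.3 and the others lay between 122.6 and 306.9, close to the off-tissue range. Loxl1, a lysyl oxidase, had 52.0, 496.0 and 372.6. Gpatch1 had 39.4, 131.6 and 387.6, Ccnt2, a transcription elongation cyclin, had 135.2, 29.4 and 280.6, and the mast cell protease gene Tpsb2 had 314.4, 61.4 and 343.1. Tpsb2 was also low in the strained culture of litter 2, at 58.5 against 311.8 and 105.2 in litters 1 and 3 (limma adjusted p = 0.011, in the test between litters described below). Each culture in turn was the lowest or the highest of such genes.

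The cultures were not equally often apart. Culture 3 was at least 2-fold from the mean log2 of the other cultures for 136 genes, 105 higher and 31 lower. Culture 1 was so for 87 genes, 28 higher and 59 lower, and culture 2 for 81, 18 higher and 63 lower. Among the genes furthest above the others in culture 3 were Ipo8, a nuclear import receptor, at 153.4, 171.3 and 530.4, and Pcolce, which enhances procollagen processing, at 97.3, 201.6 and 460.2. Khsrp, an RNA-binding protein, stood highest in culture 1 at 2852, 826.9 and 1010, as did the neuronal tubulin Tubb3 at 556.4, 228.4 and 147.4.

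**Figure D4:**
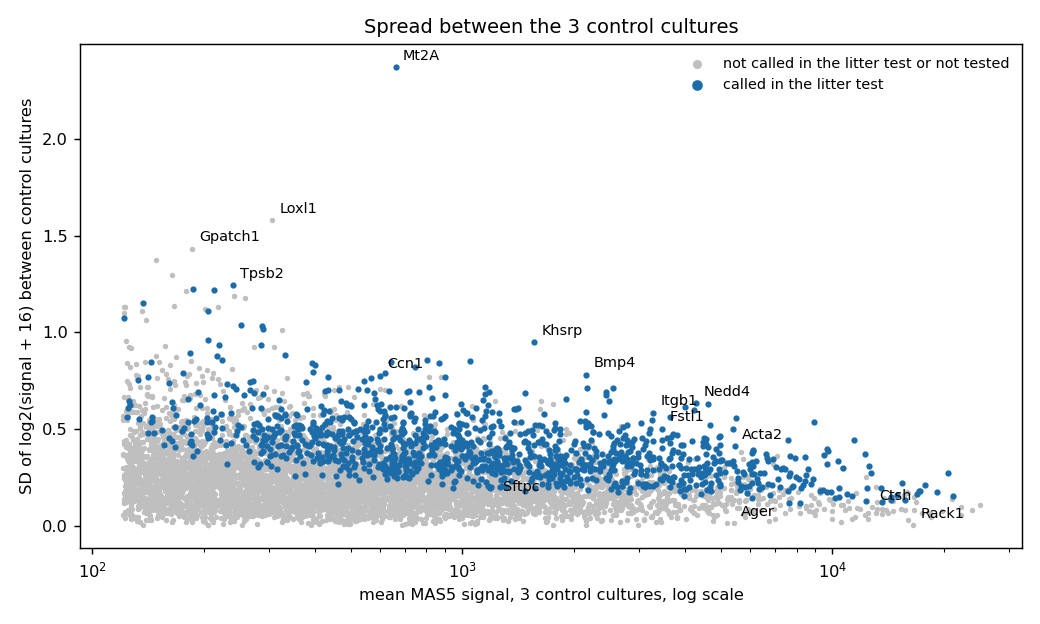
SD of log2(signal + 16) between the 3 control cultures against mean MAS5 signal (log axis) for the 7170 genes above the dim level; blue points were called in the test between litters, grey points were not called or not tested. Most of the widest spreads lie at the low end of the signal axis; Mt2A (SD 2.37), Khsrp (0.95) and Bmp4 (0.78) are labelled examples at higher means, while Ager and Rack1 lie near 0.

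Whether a difference between control cultures came back in the other culture of the same litter was tested with limma, with litter and group as terms over all 6 arrays. The litter F test called 1550 of 9520 probe sets (16.3%) at a Benjamini-Hochberg adjusted p of 0.05, or 1187 of 7159 genes (16.6%) by their brightest probe set. The calls rest on how the variance is modelled: with a variance that did not follow signal 0 probe sets were called, the lowest adjusted p was 0.062, and 2911 had an unadjusted p under 0.05, against 3390 with the trend. With dim probe sets kept in, 289 were called, and with the dimmest 60% left out 1599 of 6347 (25.2%). Of the bright ribosomal protein genes 14 of 42 tested (33.3%) were called. Shares of lists below are set beside the 16.6% of all genes, which is not matched for brightness.

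Litter could not be told apart from handling. Litter 1 was labelled and run on another day than litters 2 and 3, and litter 3 was on another chip lot than litters 1 and 2. Control cultures 2 and 3 also differed in the sex that their labels give. Between litters 2 and 3, which shared the run day, 944 probe sets were called, and between litters 1 and 2, which shared the chip lot, 890. With run day in place of litter 150 were called.

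Called genes changed by modest amounts. Their highest control culture was a median 1.65-fold above the lowest, and 211 reached 2-fold. The highest culture was culture 1 for 453 of them, culture 2 for 262 and culture 3 for 472. For genes with a 2-fold range and a mean above 500, 108 of 131 (82.4%) were called, against 101 of 320 (31.6%) at means up to 500. These genes were picked by control values that also enter the test, so the shares called are a description. The same litter was highest among the strained cultures for 102 of the 131 (77.9%) and 194 of the 320 (60.6%), against 55.6% of all genes above the dim level.

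The smallest p belonged to Mt2A, a metal-binding metallothionein. Its control signals were 1320, 622.0 and 41.5, and the strained cultures of the same litters had 2490, 2451 and 45.9 (limma adjusted p = 7.4e-05). Both cultures of litter 3 were thus below the dim level while the other 4 were far above it. Without litter 3 the adjusted p was 0.14, so the call rests on that litter. Mt1, the related metallothionein gene, was dim in every culture, at 54.8, 6.4 and 3.6.

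Within the stress list, Chac1, Atf4, Trib3 and Asns were highest in culture 1 and lowest in culture 3. Chac1, which degrades glutathione, had 1639, 1111 and 660.5 (adjusted p = 0.0020, limma), and Atf4 had 6038, 4725 and 3802 (adjusted p = 0.0048). By its probe set with the smallest p, Trib3, a pseudokinase induced by Atf4, had 455.4, 190.3 and 68.0 (adjusted p = 8.9e-04). The strained cultures followed the same order, with Trib3 at 1877, 776.2 and 415.1. Asns, asparagine synthetase and an Atf4 target, also followed it, at 1331, 805.9 and 701.0 (adjusted p = 0.0080).

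Of the stress list 11 of 23 tested genes were called, against 16.6% of all genes, and they did not all share this order. Hspa5, the chaperone of the endoplasmic reticulum, had 2909, 3047 and 4995 (adjusted p = 0.014). Hsp90ab1 had 7623, 8802 and 12826 by its brightest probe set but 4396, 3241 and 3062 by the other, and both were called (adjusted p = 0.028 and 0.024, limma), in opposite directions. No direction is given for Hsp90ab1.

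Several genes with small p were lowest in culture 1. Bmp4, a growth factor of the distal lung, had 1085, 3173 and 2223, with strained cultures at 843.8, 2180 and 1619 (adjusted p = 0.0014, limma). Fstl1, a secreted protein that binds such factors, had 1462, 3425 and 3413 (adjusted p = 0.0010), and by its brightest probe set 2228, 3971 and 4197. Acta2 had strained signals of 1922, 4993 and 3937, again lowest in litter 1 (adjusted p = 0.0048). Myh9, non-muscle myosin, had 5615, 9573 and 11538, and Actn4, an actin crosslinker, had 3528, 6939 and 5689 (adjusted p = 0.0020 and 0.0019).

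Of the fibroblast list 6 of 12 tested genes (50%) were called, against 16.6% of all genes: Sparc, Bgn, Col3a1, Vim, Col1a2 and Lox. Col1a2 had 829.6, 1290 and 1233, Col3a1 had 1051, 1401 and 1661, and Vim, the mesenchymal filament protein, had 991.3, 1212 and 1797, each lowest in culture 1. For the 12 fibroblast genes above the dim level, the deviation from their own mean over the control cultures was taken on the log2 scale. Its median was -0.21 in culture 1, 0.07 in culture 2 and 0.09 in culture 3. Over all genes above that level it was -0.002, -0.009 and 0.025. The defining fibroblast genes Pdgfra, Dcn, Thy1 and Postn were dim by their means and were not tested. Pdgfra was also lowest in culture 1 and passed the dim level in culture 3, while Thy1 and Postn were lowest in culture 2. The part of fibroblasts in the order with culture 1 lowest was not tested. Sparc, highest in culture 2, did not follow this order. Lox did not follow it by its brightest probe set, at 418.6, 364.7 and 743.7. The other Lox probe set, at 387.1, 481.8 and 505.4, was lowest in culture 1 and was not called (limma adjusted p = 0.17). No direction is given for Lox.

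**Figure D5:**
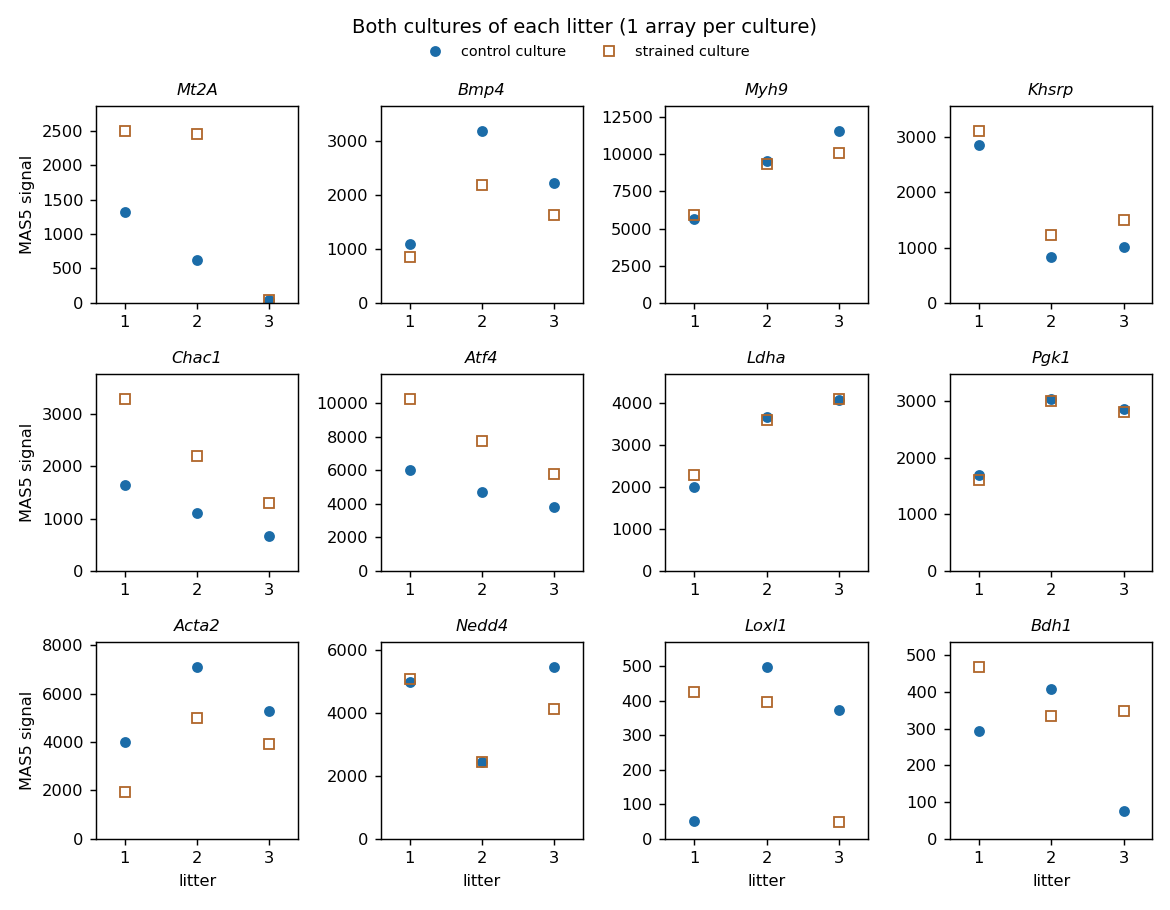
MAS5 signal (linear axes from 0) of 12 genes in both cultures of each litter, 1 array per culture, filled circles for control and open squares for strained cultures. The first 10 panels were picked from genes called in the litter test, so by selection both cultures of a litter tend to be high or low together. For Mt2A both litter 3 cultures are below 50. Loxl1 and Bdh1 were picked as variable but not called: Loxl1 has 52.0 against 426.2 in litter 1, and Bdh1 has 74.5 against 347.7 in litter 3.

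Of the glycolysis list 5 of 20 tested genes (25.0%) were called, and not all in 1 direction. The share was 16.6% over all genes and 25.2% over probe sets with the dimmest 60% left out. Ldha, lactate dehydrogenase, had 2013, 3683 and 4081, with strained cultures at 2300, 3590 and 4093 (adjusted p = 0.0040, limma). Pgk1, phosphoglycerate kinase, had 1688, 3032 and 2857 (adjusted p = 0.0046), but its next probe set had 1673, 1666 and 1963 and was not called (adjusted p = 0.705). Aldoa went the other way, at 14379, 11666 and 11206 (adjusted p = 0.019). The list's median deviation was -0.24 in culture 1, 0.10 in culture 2 and 0.06 in culture 3.

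Culture 2 and culture 3 also had called genes of their own. Nedd4, the ubiquitin ligase family founder, had 4985, 2431 and 5447, and 5077, 2439 and 4137 in the strained cultures (adjusted p = 0.0029, limma), low in litter 2. Ccn1, a matricellular relative of Ccn2, had 802.8, 289.2 and 707.7 (adjusted p = 0.0043). Itgb1, the common beta integrin, had 2681, 2249 and 4891 (adjusted p = 0.0091), high in litter 3, and its other probe set ran the same way at 746.2, 582.2 and 1307. Anxa4, an epithelial annexin, had 2346, 3450 and 5124 (adjusted p = 0.0020).

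Other genes with the smallest p included Khsrp, high in litter 1 at 2852 and 3099 and between 826.9 and 1504 in the other 4 arrays (adjusted p = 0.0015). Ndufb1, a subunit of respiratory complex I, had 4109, 1921 and 1622, and Tm7sf2, a sterol reductase, had 3129, 1970 and 1384 (adjusted p = 0.0019 and 0.0017, limma). RT1-T24-4, a class I histocompatibility gene, had 400.3, 1280 and 921.8 (adjusted p = 0.0014), from a probe set that can bind related genes, so its identity is uncertain. Fam111a and Anp32a were called at means of 395.2 and 331.4, and Wtip at 896.7 with 482.7 in culture 3. Without litter 1 the adjusted p was 0.23 for Khsrp, 0.60 for Fstl1, 0.67 for Ndufb1 and 0.14 for Myh9, and without litter 3 it was 0.40 for Wtip. Of the 15 genes with the smallest p, Mt2A, Anxa4, Chac1 and Wtip were not called with run day in place of litter (adjusted p from 0.070 to 0.55), and without the group term Trib3 and Chac1 were not (0.15 and 0.096).

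Most epithelial genes were not called, as held for most of all genes tested. Foxa2, Nkx2-1, Scgb1a1, Pdpn, Ager, Krt7 and Epcam were not called, with limma adjusted p from 0.097 to 0.83, and neither were Ctsh (0.13), Sftpc or Sftpb. After quantile normalisation Ctsh was called (adjusted p = 0.028). Of the general epithelial list 5 of 19 tested genes (26.3%) were called, against 16.6% of all genes. With the dimmest 60% of probe sets left out, the share over all probe sets was 25.2%. The 5 called genes were Krt8, Jup, F11r, Perp and Cldn4, with Krt8 at 5858, 8154 and 7389 and the tight junction gene Cldn4 at 3845, 2440 and 2203. Perp had 3554, 2964 and 2184 by its brightest probe set. Its other probe set had 2556.5, 3035 and 2690 and was not called (limma adjusted p = 0.53). Of the type I list 2 of 14 (14.3%) were called, near the 16.6% of all genes, S100a6 and Gprc5a, both highest in culture 1. Of the type II list 4 of 13 tested genes (30.8%) were called, against the same 16.6% and 25.2%. They were Lyz2, Abca3, Pcyt1a and Sftpd, and each was lowest in culture 1. Lyz2, lysozyme of type II cells and macrophages, had 937.8, 1068 and 1576 (adjusted p = 0.0096). Abca3 had an adjusted p of 0.028, and Sftpd of 0.041, and both calls were fragile. Without litter 1 the adjusted p was 0.54 and 0.56, with run day in place of litter 0.089 and 0.12, and without the group term 0.054 and 0.090. Sftpd was also not called without litter 2 (0.13) or after quantile normalisation (0.063). The median deviation over the 14 type II genes above the dim level was -0.14 in culture 1, 0.05 in culture 2 and 0.12 in culture 3.

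For genes with several probe sets the culture order was only partly shared between them. Of 847 genes with 2 or more tested probe sets, the 2 brightest gave the same highest control culture for 445 (52.5%). The share was 110 of 186 (59.1%) where the brightest probe set was called and 31 of 41 (75.6%) where both were. A call at a single probe set of a gene is therefore given here as that probe set's value.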

How the data were processed

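RNA of 6 cultures, 3 control and 3 strained, was hybridised to Affymetrix rat E230A arrays, 1 per culture, after TRIzol extraction and biotin labelling, per the labels' protocols. The deposited values are a linear intensity per probe set, the signal of MAS5 version 5.0 per the submitters' processing notes, scaled by the authors to a common trimmed mean. The number of arrays limits the precision. Run records gave batches only. Symbols came from the platform annotation: of 15866 probe sets 12783 had 1 symbol, 312 several and 2771 none, and 12748 gene IDs were found in a RefSeq table.

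Genes, without the array's 57 control probe sets, were ranked by mean control signal of their brightest probe set. The test used limma 3.58.1 in R 4.3.3 on log2(signal + 16): an F test of litter with group as a term, variance trend on intensity, the dimmest 40% of probe sets left out, Benjamini-Hochberg adjustment at 0.05. It was tested on simulated data. The prior carried 9 degrees of freedom and the residuals 2, so p-values rest mostly on variance shared between probe sets. Each litter has its own 2 cultures, per the series' design text.

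Members and lists were chosen with earlier results of these data known. Genes named are the 30 brightest, the 6 brightest and 4 dimmest of each list, the most and least variable, the extremes of each culture, the 15 with the smallest litter p, and the type II markers. Asns, Ccn1, Itgb1, Lyz2, Vim, Col3a1, Col1a2, Lox, Krt8, Jup, F11r, Perp, Cldn4, Hopx, Aqp5, Dcn, Thy1, Pdgfra, Ptprc, Cdkn1c, Mt1 and Pcyt1a, among others used as examples, were picked after their values were seen. Alternatives were other pseudocounts, dim levels, scalings, filters and terms, and each culture or litter left out.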

Additional observations from a re-analysis of the deposited data

How the results depend on the processing

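The ranking was stable under the alternatives run: 90 to 99 of the 100 brightest genes were shared and 29 to 31 were ribosomal protein genes. Counts near the dim level moved with that level: endothelial genes above it were 10 with the 20th percentile and 2 with the 60th, against 4, and leukocyte genes 3 with the 60th, against 11. With the 60th percentile smooth muscle genes above it were 6, neuroendocrine 2, and ciliated, basal and mesothelial 1 each. With the 20th and the 60th percentile erythroid genes were 4 and 0, interferon and inflammation genes 22 and 5, and off-tissue genes 18 and 1. Genes with a 2-fold range between control cultures numbered 258 with a pseudocount of 64, 1373 with dim genes kept and 224 above the 60th percentile, against 451. With a culture left out they numbered 132 to 217, where a range over fewer cultures is lower by construction. The median log2 SD over all genes kept was 0.208 with a pseudocount of 64, 0.255 with dim genes kept and 0.172 to 0.212 with a culture left out, against 0.231. The litter test called 289 probe sets with dim probe sets kept, 0 without the variance trend, 150 with run day in place of litter, 814 without the group term and 890 to 1324 with a litter left out, against 1550. The other main values (62 in all) moved by less than 1.5 times or their spread. Of the calls of single genes the loss without the trend touched all named, and Abca3 and Sftpd were also lost with dim probe sets kept (adjusted p 0.064 and 0.079, limma). With no detection calls used, signal over background is known only through the dim and off-tissue levels. No paired analysis was possible for the test between litters, because the replicate number is the litter, which is itself the term tested. With litter and group as terms the model did pair the cultures of each litter. Its group term was not examined, and no control was compared with a strained culture.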

Other observations

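Genes of the rat major histocompatibility complex, RT1, were looked at after the values were seen, because RT1-T24-4 was among the genes with the smallest p between litters. Of 18 measured RT1 genes 13 (72.2%) lay above the dim level, against 68.9% of all genes. Only 7 of the 18 lay above the off-tissue level, a smaller share than the 58.4% of all genes. RT1-CE12, a class I gene, had 1056, 932.4 and 1160 in control cultures 1, 2 and 3, and RT1-DMa, which helps to load class II molecules, was steady at 703.0, 695.0 and 697.3. The class II chains RT1-Da and RT1-Bb, which present peptides, were dim at means of 109.1 and 54.0. Of the 12 tested, 2 were called between litters, near the 16.6% of all genes. Probe sets of class I genes can bind several family members, so these signals may not belong to the named gene alone.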
